A study of Homo sapiens with 24 samples.

Results

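Cells that received a vector for an AgoshRNA were compared with cells that received plasmids for the RNA-guided nuclease CasRx and its guide. The comparison used 18 of the 24 libraries of the series, chosen by setup from the labels: 6 AgoshRNA libraries, 6 gRNA libraries and 6 pre-gRNA libraries, so 12 from CasRx plasmids. Each setup had 3 libraries with a construct against the circular RNA ciRS-7 (CDR1as), called KD here, and 3 with a non-targeting construct, called NTC. Arm (KD or NTC) was a covariate, so the values below are differences between setups and not effects of the knockdown. Every cell was labelled SH-SY5Y, an established human neuroblastoma line, and RNA was harvested 48 h after transfection with 1 kind of lipid kit.

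In the AgoshRNA groups a single expression vector was delivered (2.5 mg per well of a 6-well plate as printed in the labels, with 7.5 ml of the lipid). In the CasRx groups a CasRx-GFP plasmid (2 mg as printed) was delivered with a plasmid for the guide (1 mg) and 5 ml of the lipid. The guide is called gRNA in one CasRx setup and pre-gRNA in the other. P3000 reagent was 5 ml in each group. No library received transfection reagent alone or was left untransfected, so which side of a difference departs from untreated cells cannot be told. The hairpin, the nuclease, the amounts of DNA and reagent, and any batch in which a setup was handled all differ together and cannot be told apart. Nothing states that the 3 libraries of a group came from separate cultures, so p-values measure the spread between these libraries, which may be technical.

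An AgoshRNA is a short hairpin that bypasses Dicer and is cut and loaded by an Argonaute protein, the slicing enzyme of RNA interference. CasRx is a Cas13d nuclease that cuts RNA complementary to its guide. The heat-shock response, to which several of the genes below belong, is switched on when the transcription factor HSF1 is released by unfolded protein; it raises chaperones of the HSP70 and HSP110 families, their J-domain partners and small heat-shock proteins. U6 small nuclear RNA is made by RNA polymerase III and takes part in splicing.

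Total counts ran from 11678756 to 16233777 per library, and 16947 to 18863 genes had at least 10 counts. Mitochondrial genes took 3.36 to 5.13% of counts. Libraries of a group differed by far more than counting error, with a chi-square per degree of freedom of 20.6 to 235. Of 17 markers of noradrenergic neuroblastoma, the type expected of SH-SY5Y, 5 averaged above 10 CPM (counts scaled to the size of the library) and 6 never exceeded 5 counts in any library; PHOX2A, STMN2 and ELAVL4 were among those 6. Of 13 kidney-lineage genes described in HEK293 cells, 9 averaged above 10 CPM, as did 8 of 13 mesenchymal neuroblastoma genes, so several defining markers of the labelled line were at or near 0. The summed kidney-lineage markers were 215 to 442 CPM in the AgoshRNA libraries, 406 to 531 in gRNA and 312 to 532 in pre-gRNA. The noradrenergic sums were 100 to 201, 131 to 200 and 139 to 185 CPM, and the mesenchymal sums 1080 to 1330, 964 to 1370 and 967 to 1220. The part of these markers in the results was not tested.

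Libraries of 1 setup also differed among themselves. Within a group the libraries are told apart by a letter (A, B or C), and the KD and NTC libraries of 1 setup that have the same letter deviated together from their group means (r across genes of 0.41 to 0.97 in the 9 pairs). The slope of expression on transcript GC content ran from -0.68 to 0.74 log2 per 10 GC points and went with the letter within each setup. Each setup held libraries with positive and with negative slopes. KD and NTC libraries of unlike letter gave r of -0.94 to 0.51, and limma-voom estimated a correlation of 0.815 within pairs. The 2 libraries of a pair were thus not independent. For setup differences, p-values from the 18 libraries taken singly are too small. Fits with the 2 libraries of a pair summed (9 libraries), with the pair as a random term, and with the GC trend removed are given where they change a call.

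**Figure D1:**
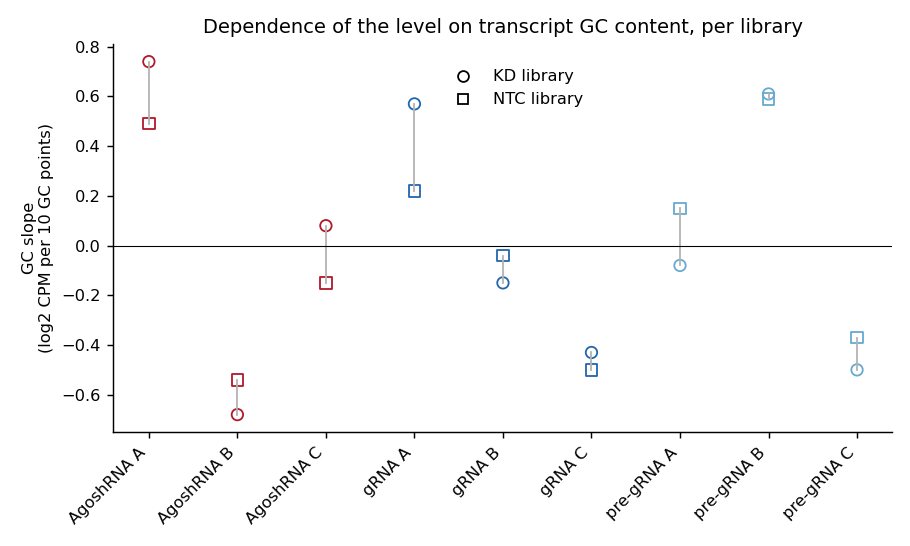
Slope of log2 CPM on transcript GC content (y axis, log2 CPM per 10 GC points) in each of the 18 libraries, by setup and letter (x axis). Circles are KD and squares NTC libraries, joined where they share setup and letter; slopes ran from -0.68 to 0.74, and the widest gap between joined libraries was in gRNA A (0.57 and 0.22).

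Against gRNA, 11 genes rose and 4 fell in the AgoshRNA libraries (edgeR quasi-likelihood test, Benjamini-Hochberg adjusted p under 0.05), which is 0.0762% of the 19691 genes tested. Against pre-gRNA 7 rose and 5 fell (0.0609%). Between the CasRx setups themselves no gene was called by edgeR, with 104 genes at an unadjusted p under 0.05 and 0 calls in DESeq2. Altogether 10 genes were called against each CasRx setup with 1 sign in both arms (0.0508%): 7 were higher (0.0355%) and 3 lower (0.0152%) with the AgoshRNA vector. The higher genes were HSPA6, RNU6-1, DNAJB1, DNAJB6, TNN, PNLDC1 and POU2F2, and the lower ones C1orf116, AC008982.2 and HIST1H4H. Both comparisons use the same AgoshRNA libraries and so are not independent of each other. In bulk RNA, more cells expressing a gene and more RNA per cell cannot be told apart.

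The 6 AgoshRNA libraries lay wholly outside the range of the 12 CasRx libraries for 33 genes (0.168% of those tested), 17 of them higher (0.0863%) and 16 lower (0.0813%). Of the 10 genes called against both setups, 9 were among these; PNLDC1 was the exception. Fits that allow for the pairs made fewer calls: RNU6-1 alone with the pairs summed, and RNU6-1, HSPA6 and DNAJB1 with the pair as a random term in limma-voom. The other 7 of the 10 genes, DNAJB6, TNN, PNLDC1, POU2F2, C1orf116, AC008982.2 and HIST1H4H, lost their call in both of these fits. RNU6-1, HSPA6 and DNAJB1 were also called without any 1 library and without any 1 pair.

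**Figure D2:**
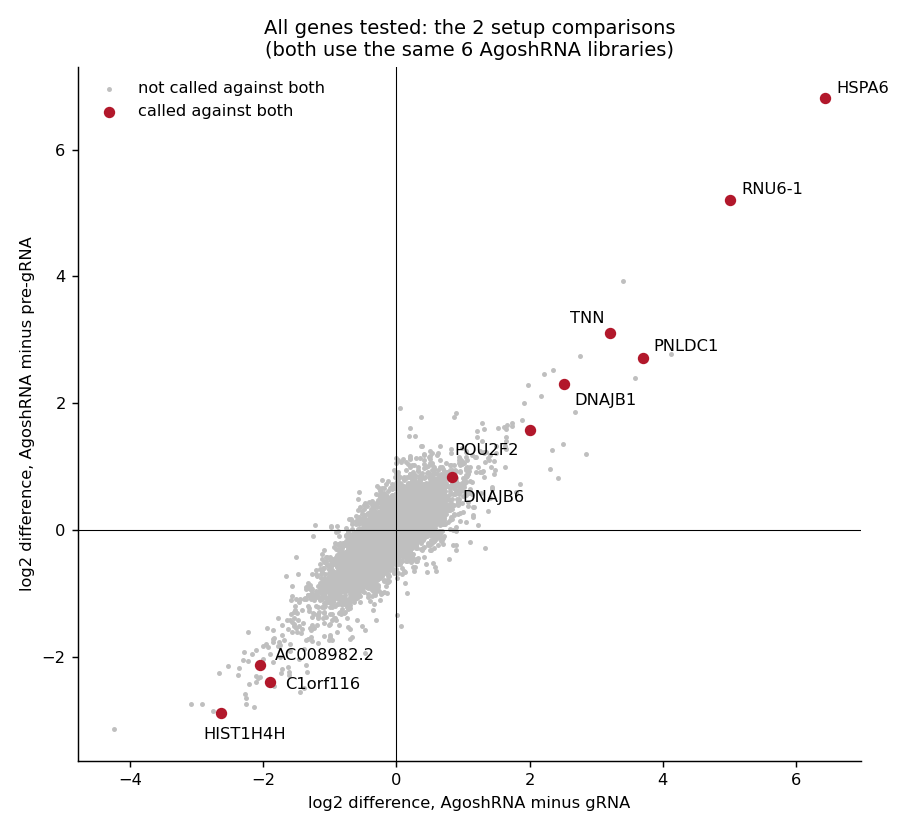
Log2 difference of AgoshRNA against gRNA (x axis) and against pre-gRNA (y axis) for the 19691 genes tested, with the 10 genes called against both in red. The axes share the AgoshRNA libraries, which by itself aligns the points; HSPA6 and RNU6-1 lie farthest from the origin at the upper right.

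The promoters of the chaperone genes called against both setups are shown first, searched for the heat-shock element, a known regulatory element of heat-shock genes. They are RefSeq promoters of GRCh38.p14 (250 bases before to 50 after the start, written in the direction of transcription), with the core of the heat-shock element in capitals. The core was searched as GAANNTTC and TTCNNGAA; each reads the same on both strands, and overlapping matches were kept.
HSPA6, chr1:161524290-161524589, plus strand: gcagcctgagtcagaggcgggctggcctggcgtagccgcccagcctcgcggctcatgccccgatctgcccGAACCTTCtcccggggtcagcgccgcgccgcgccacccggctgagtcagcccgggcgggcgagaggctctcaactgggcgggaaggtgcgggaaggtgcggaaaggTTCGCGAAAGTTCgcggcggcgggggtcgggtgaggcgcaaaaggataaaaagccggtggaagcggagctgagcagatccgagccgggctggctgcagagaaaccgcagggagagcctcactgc
DNAJB1, chr19:14518348-14518647, minus strand: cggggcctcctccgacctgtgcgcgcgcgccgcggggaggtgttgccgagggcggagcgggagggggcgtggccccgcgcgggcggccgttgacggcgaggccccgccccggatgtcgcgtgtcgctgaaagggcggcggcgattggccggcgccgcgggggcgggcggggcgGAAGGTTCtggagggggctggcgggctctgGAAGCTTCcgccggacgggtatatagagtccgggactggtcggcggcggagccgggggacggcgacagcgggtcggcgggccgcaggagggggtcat
DNAJB6, chr7:157336754-157337053, plus strand: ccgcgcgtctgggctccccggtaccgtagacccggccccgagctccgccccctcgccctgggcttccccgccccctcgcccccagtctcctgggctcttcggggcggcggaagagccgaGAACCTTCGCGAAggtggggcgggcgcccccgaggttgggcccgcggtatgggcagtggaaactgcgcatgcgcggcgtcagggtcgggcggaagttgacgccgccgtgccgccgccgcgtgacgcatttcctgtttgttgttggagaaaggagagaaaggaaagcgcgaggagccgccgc
The HSPA6 promoter held 3 cores, 2 of which overlap and form 3 alternating units; DNAJB6 likewise held 2 overlapping cores. This DNAJB1 start held 2 separate cores, while the other starts of the gene held 0 and 1. Of the 27305 genes with a promoter entry 16.2% held a core and 0.608% held 3 alternating units (GAANNTTCNNGAA or TTCNNGAANNTTC). Among 25 heat-shock genes with an entry, 17 held a core and 8 held 3 units. HSPH1 and BAG3, described below, were among those without a core. Among the 8 called genes with an entry, the 3 with a core were HSPA6, DNAJB1 and DNAJB6. A match describes these letters and is not evidence of binding.

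U6 has many near-identical gene copies. The annotated transcripts of RNU6-2 and RNU6-9 do not differ from that of RNU6-1, and that of RNU6-8 differs by 1 base, so a read lying wholly inside the transcript cannot be assigned to a copy with certainty. How the counting treated reads with several matches is not given in the sources used here.

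HSPA6 (ENSG00000173110.7_3, hg19 chromosome 1, 161494330 to 161496700), a strictly stress-inducible HSP70 chaperone, showed the greatest difference among the 10 genes. Its counts were 408 to 547 with AgoshRNA and 0 to 12 with CasRx. In CPM after scaling by TMM (trimmed mean of M-values), its lowest, median and highest levels were 32.9, 38.3 and 38.8 with AgoshRNA and 0, 0.387 and 0.911 with CasRx. Every AgoshRNA library was far above every CasRx library, and the KD and NTC arms were alike in this. The log2 difference was 6.44 (SE 0.56) against gRNA and 6.81 (SE 0.57) against pre-gRNA, with adjusted p of 7.2e-06 and 4.1e-06 in edgeR. Within arms it was called in all 4 comparisons, at 6.29 and 7.3 in KD and 6.6 and 6.43 in NTC. With the pairs summed it was not called, at adjusted p of 0.142 and 0.11 in edgeR.

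RNU6-1 (ENSG00000206625.1) had 196 to 394 counts with AgoshRNA and 2 to 17 with CasRx. Its lowest, median and highest levels were 13.8, 20.1 and 33.3 CPM with AgoshRNA and 0.134, 0.627 and 1.18 CPM with CasRx. The ranges were wide apart in both arms. It differed by 5.01 (SE 0.42) against gRNA and 5.21 (SE 0.42) against pre-gRNA on the log2 scale (edgeR adjusted p of 6.81e-06 and 4.06e-06). Within arms it was called in all 4 comparisons, at 5.72 and 5.09 in KD and 4.51 and 5.34 in NTC. It passed the test in all 39 alternatives tried, the summed pairs included (edgeR adjusted p of 0.0447 and 0.0337).

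The counts of other U6 copies overlapped between the groups. RNU6-8 had 27 to 34 counts with AgoshRNA and 24 to 43 with CasRx, RNU6-2 had 3 to 14 and 4 to 17, and RNU6-9 had 4 to 29 and 5 to 31. All 1331 entries named as U6 genes or pseudogenes other than RNU6-1 summed to 287 to 525 counts per AgoshRNA library and 288 to 652 per CasRx library. The gene RP11-34F13.3, which overlaps RNU6-1 on the opposite strand, had at most 5 counts in any of the 18 libraries. The libraries were poly(A)-selected, which is meant to remove U6 RNA, and non-stranded, so the strand of the RNU6-1 reads is not known. Of 12 tested entries for RNA polymerase III transcripts, RNU6-1 was the 1 called; the median difference of the 12 was -0.25 and -0.07. RN7SL2, an RNA of the signal recognition particle, was at -0.56 and -0.11 (edgeR adjusted p of 1).

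DNAJB1 (ENSG00000132002.7_4, chromosome 19, 14625582 to 14640582), the HSP40 that hands substrates to HSP70, had 4769 to 7686 counts with AgoshRNA and 713 to 1965 with CasRx. Its lowest, median and highest levels were 373, 414 and 728 CPM against 49.2, 88.4 and 151 CPM. No CasRx library reached the lowest AgoshRNA library, and the letter C libraries were the highest of AgoshRNA. The log2 difference was 2.51 (SE 0.31) against gRNA and 2.31 (SE 0.31) against pre-gRNA, with edgeR adjusted p of 0.00135 and 0.00301. Within the arms it was 2.44 and 2.35 in KD and 2.58 and 2.27 in NTC, none called with 3 libraries a group. With the pairs summed, edgeR adjusted p was 0.676 and 1. TECR, which overlaps DNAJB1 on the other strand, was at 0.04 and -0.33.

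DNAJB6 (ENSG00000105993.14_5, chromosome 7, 157128075 to 157210133), a J-domain protein that prevents aggregation, showed a smaller difference with narrow ranges. Its lowest, median and highest levels were 156, 177 and 213 CPM with AgoshRNA and 87, 96.9 and 114 with CasRx. The groups did not overlap. It differed by 0.83 (SE 0.14) and 0.84 (SE 0.14) in log2, with edgeR adjusted p of 0.0211 and 0.0245. The call was lost in 24 of 39 alternatives against each setup, among them the removal of the GC trend against gRNA (0.87, adjusted p of 0.0844), with no change of sign.

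**Figure D3:**
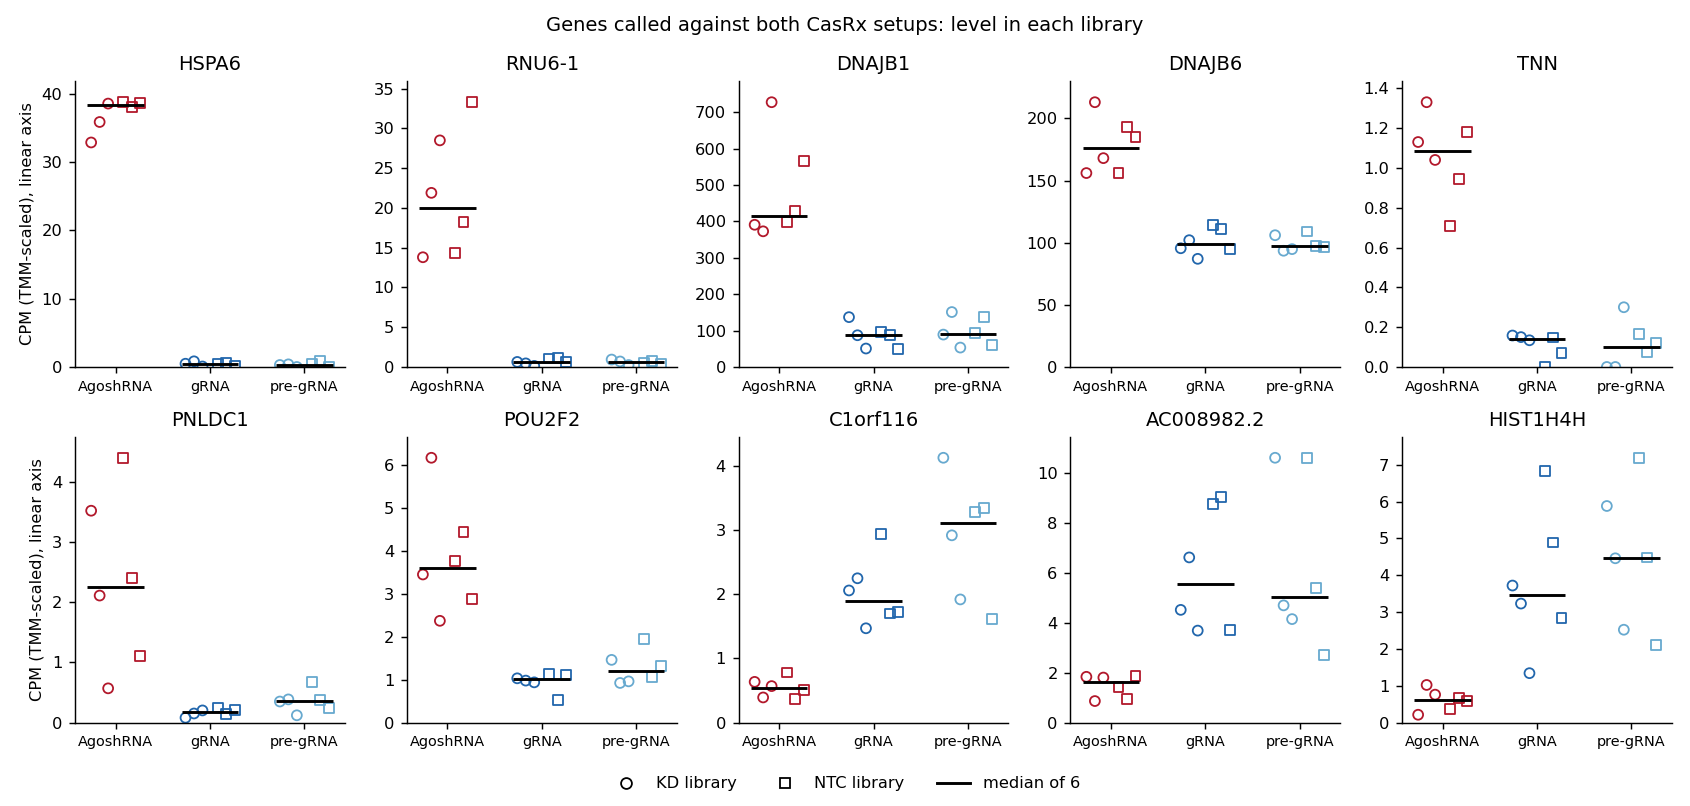
TMM-scaled CPM (y axis, linear, own scale per gene) of the 10 genes called against both CasRx setups in the 18 libraries, by setup (x axis); circles are KD, squares NTC, bars the median of 6 libraries. For every gene but PNLDC1 the AgoshRNA points lie wholly above or wholly below the CasRx points.

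Heat-shock genes as a list were higher with the AgoshRNA vector, but few passed the test one by one. Of 28 genes written down for the HSF1 response 27 could be tested; 26 lay above 0 against gRNA and 25 against pre-gRNA, with medians of 0.68 and 0.57, where the medians of all genes tested were 0 and -0.02. The calls were HSPA6 and DNAJB1 alone, and these and STIP1 were the 3 members with no overlap of the groups. Over all genes tested, 0.0355% were called higher, 0.0863% lay wholly higher, and 9760 and 9351 of 19691 lay above 0. The median of the list within each library, relative to the mean of the 18 libraries, was 0.21 to 0.74 in AgoshRNA and -0.5 to 0.01 in CasRx libraries. On that measure the groups did not overlap, and the letter A libraries were the lowest of AgoshRNA. By arm the list medians were 0.59 and 0.74 against gRNA in KD and NTC, and 0.59 and 0.51 against pre-gRNA. Lists and members were chosen with these differences partly known, so the list is not independent evidence of its direction.

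Removing the GC trend from each library brought more calls in this list. With it removed, 32 genes were called against both setups (0.163%), 26 of them higher (0.132%), and 52 genes lay wholly higher in AgoshRNA (0.264%). Of the 27 heat-shock genes, 8 were then called and 11 lay wholly above the CasRx range. The 6 added were HSPA1A, HSPH1, BAG3, CHORDC1, STIP1 and HSPB1; naming them, and the other genes called with the trend removed, was decided after their values were seen. Fits that also allow for the same-letter pairs kept few of these calls. With the GC trend removed and the pairs summed, HSPA6 and RNU6-1 were the 2 genes called, so none of the 6 was. With the pair as a random term the 5 called were HSPA6, RNU6-1, DNAJB1, BAG3 and HSPH1, so CHORDC1, STIP1, HSPB1 and HSPA1A were not.

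HSPH1, the HSP110 that recharges HSP70 with ATP, is an example of the change. Its lowest, median and highest levels were 46.2, 213 and 411 CPM in AgoshRNA and 36.6, 67.6 and 110 in CasRx libraries, which overlap. With the GC trend removed they were 103, 200 and 222 against 57.9, 61.7 and 77.2, which do not. The log2 difference moved from 1.61 to 1.51 against gRNA and from 1.62 to 1.41 against pre-gRNA. Its edgeR adjusted p went from 0.444 to 0.000257 and from 0.399 to 0.000542.

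BAG3, a co-chaperone that couples HSP70 to autophagy, ranged from 133 to 178 CPM against 43.7 to 74.8 with the trend removed, and differed by 1.36 and 1.22. CHORDC1, an HSP90 co-chaperone, ranged from 78 to 105 against 49.1 to 59.2 and differed by 0.82 and 0.79. STIP1, which bridges HSP70 and HSP90, differed by 0.76 and 0.73, and the small heat-shock protein HSPB1 by 0.79 and 0.77. In these 4 genes the trend-removed groups did not overlap.

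HSPA1A and HSPA1B, the main inducible HSP70 genes, differ at few bases, so how their reads were split is uncertain. HSPA1A had 882 to 2029 counts with AgoshRNA and 174 to 1169 with CasRx, and HSPA1B 9591 to 23409 and 2219 to 13617. Both ranges overlapped in counts. Their differences were 1.66 and 1.66 for HSPA1A and 1.65 and 1.6 for HSPA1B, none called. With the GC trend removed HSPA1A was called (1.82 and 1.8, edgeR adjusted p of 0.0357 and 0.0386, though not in the fits that also allow for the pairs) and HSPA1B was not (1.79 and 1.72, adjusted p of 0.0505 and 0.0575).

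Constitutive members of the list were not called and varied in size. Neither were HSP90AA1 (1.04 and 0.95), HSPB8 (1.32 and 1.22), CRYAB (1.43 and 0.65) and SERPINH1 (0.71 and 0.46), with or without the GC trend. The lack of a call thus does not set the constitutive members apart. HSPA8, the constitutive HSP70, was at 0.58 and 0.8 (edgeR adjusted p of 1 and 0.439). HSP90AB1, the constitutive cytosolic HSP90, was at 0.17 and 0.23, HSPD1, the mitochondrial HSP60, at 0.19 and 0.38, and HSF1 itself at 0.02 and -0.19 (edgeR adjusted p of 1 for each). Of 36 other J-domain genes tested, 24 were above 0 against each setup, with medians of 0.11 and 0.12. DNAJB6 was the 1 called, and DNAJB4 with the GC trend removed (1.19 and 1.05, edgeR adjusted p of 0.00029 and 0.00187). Neither was called in the fits that allow for the pairs, with or without the GC trend.

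**Figure D4:**
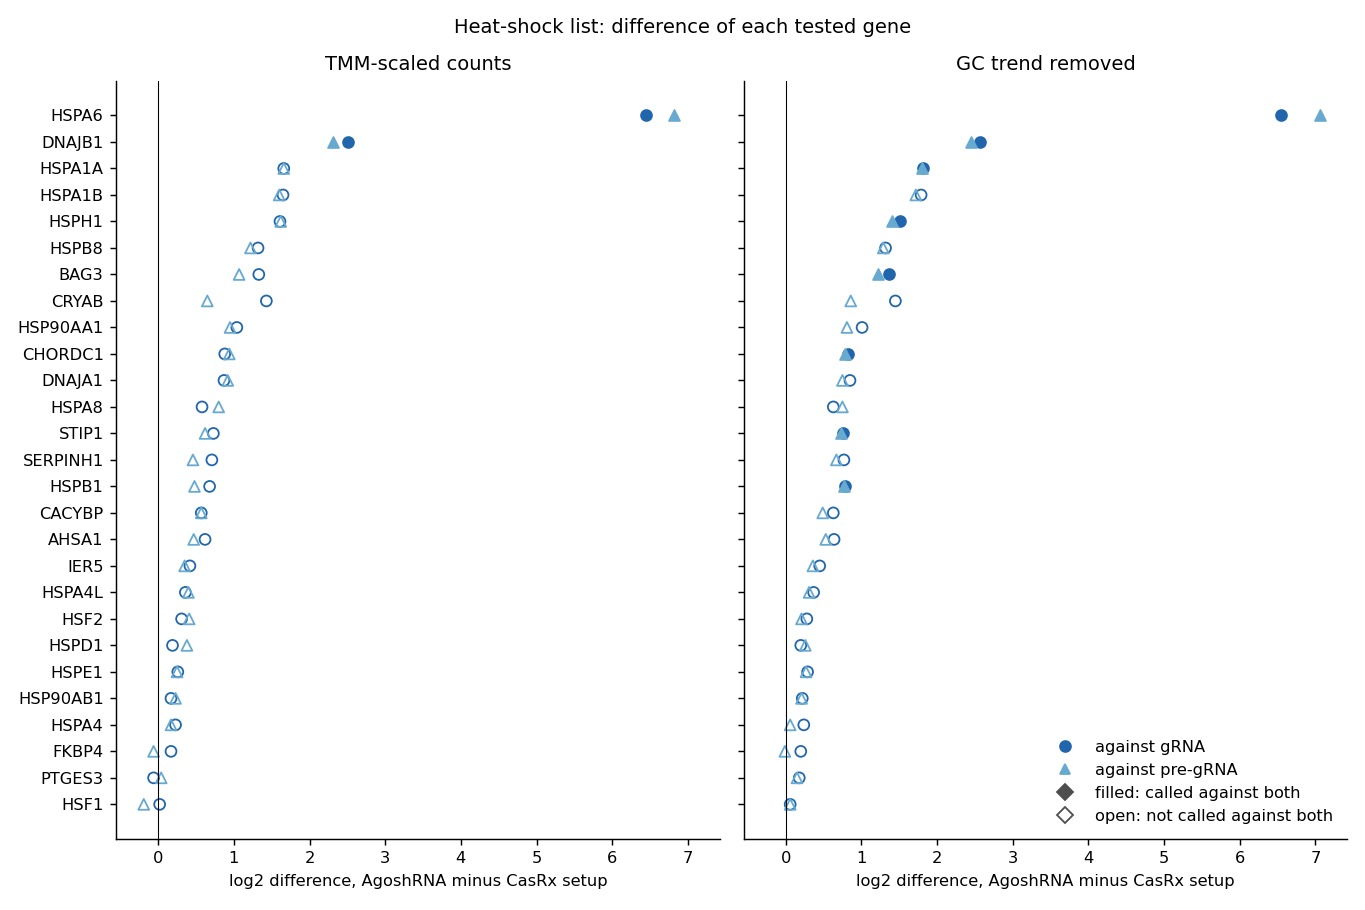
Log2 difference (x axis) of each of the 27 tested heat-shock genes (y axis) between AgoshRNA and gRNA (circles) or pre-gRNA (triangles), on TMM-scaled counts at left and with the GC trend removed at right. Filled symbols mark genes called against both setups, 2 at left and 8 at right; nearly all symbols lie right of 0.

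Other stress programmes did not give calls. With 0.0508% of all genes tested called against both setups, lists of this size would seldom hold a call, so its absence shows little. No gene was called among 20 of the endoplasmic reticulum (medians 0.15 and 0.22), 20 of the integrated stress response through ATF4 (0.26 and 0.11), 31 of the proteasome (0.1 and 0.02), 16 of the NRF2 oxidative response (0.14 and 0.09), or 18 targets of p53 (0.02 and 0.02). Of 22 interferon-response genes 10 reached the count filter; 9 lay above 0 against each setup, with medians of 0.27 and 0.15, and none was called. Of 15 sensors of foreign RNA and DNA 8 could be tested, with medians of -0.04 and 0 and no call. The 14 genes of the Argonaute and microRNA machinery lay at medians of -0.14 and 0.13, with no call. Against gRNA and pre-gRNA, 17 and 17 of 20 endoplasmic reticulum genes lay above 0, and 16 and 12 of 20 ATF4 genes. The counts were 26 and 16 of 31 for the proteasome, 13 and 10 of 16 for NRF2 and 9 and 10 of 18 for p53. They were 3 and 4 of 8 for the sensors and 4 and 9 of 14 for Argonaute. A lean above 0 was thus seen in other lists, with smaller medians than the 0.68 and 0.57 of the heat-shock list.

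The 3 genes that fell had few counts. HIST1H4H (ENSG00000158406.4_3, chromosome 6, 26277837 to 26285866), a replication-dependent histone H4 gene, had 3 to 13 counts with AgoshRNA and 20 to 129 with CasRx. Its lowest, median and highest levels were 0.211, 0.623 and 1.02 CPM against 1.34, 4.09 and 7.19 CPM. The groups did not overlap. It fell by 2.63 (SE 0.43) and 2.89 (SE 0.43) in log2, with edgeR adjusted p of 0.0169 and 0.00876.

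The replication-dependent histone genes mostly shared that direction. Their messages normally end in a stem-loop without a poly(A) tail, so poly(A) selection captures a minor fraction of them. Of 38 tested members, 1 lay above 0 against gRNA and 2 against pre-gRNA, with medians of -0.89 and -0.99. HIST1H4H was the 1 called against both; HIST1H2AC (-1.01 and -1.5) and HIST1H3E (-1.36 and -2.12) were called against pre-gRNA only, without a test of that difference. No overlap of the groups was seen for 5 members, these 3, HIST1H3B and HIST2H4A, which is near-identical to HIST2H4B. Over all genes tested, 0.0152% were called lower against both and 0.0813% lay wholly lower. In each library the list median ran from -0.95 to -0.28 in AgoshRNA, while the letter C libraries of both CasRx setups, at -0.51 to -0.04, were much below their A and B libraries, at 0.42 to 0.98. So on this measure the groups overlapped through the letter C libraries.

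C1orf116, known as specifically androgen-regulated gene protein, had 5 to 11 counts with AgoshRNA and 22 to 71 with CasRx. Its levels were 0.364, 0.538 and 0.78 CPM against 1.47, 2.16 and 4.13 CPM, with no overlap. It fell by 1.89 (SE 0.3) and 2.39 (SE 0.29), with edgeR adjusted p of 0.0154 and 0.00109. AC008982.2 (ENSG00000269688.1_3, chromosome 19, 39335369 to 39336139) is annotated inside HNRNPL on the same strand and had 11 to 26 counts against 45 to 190. It fell by 2.04 (SE 0.37) and 2.13 (SE 0.37), with edgeR adjusted p of 0.0451 and 0.0377, while HNRNPL was at 0.02 and -0.1. The call of AC008982.2 was lost in 24 of 39 alternatives against each setup, that of C1orf116 in 9 and 3 of 38, and that of HIST1H4H in 12 and 7 of 38.

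Among low genes that rose, TNN (tenascin N, a matrix protein) had 10 to 17 counts against 0 to 5. It differed by 3.21 (SE 0.52) and 3.1 (SE 0.51), with edgeR adjusted p of 0.0169 and 0.0223. POU2F2, an octamer-binding transcription factor of B cells, had 25 to 79 counts against 7 to 35 and levels of 2.37 to 6.17 against 0.518 to 1.95 CPM. The CPM ranges did not overlap, and the differences were 2.01 (SE 0.28) and 1.58 (SE 0.27), with edgeR adjusted p of 0.00363 and 0.0317. PNLDC1, a nuclease that trims piRNAs, had 6 to 62 counts against 1 to 12. Its lowest AgoshRNA libraries were those of letter C, with 6 counts in KD and 13 in NTC, and the KD one lay inside the CasRx range; the differences were 3.7 (SE 0.48) and 2.71 (SE 0.43), with edgeR adjusted p of 0.0017 and 0.0189. The call of TNN was lost in 13 and 15 of 38 alternatives, that of POU2F2 in 4 and 20, and that of PNLDC1 in 3 and 12. TNN and PNLDC1, like HSPA6, passed the filter of 10 counts in 3 libraries only through the AgoshRNA libraries, where they are high. Fewer than 3 CasRx libraries reached 10 counts for any of them. TNN, PNLDC1 and HSPA6 were also called against both setups with no filter on low counts. TNN, PNLDC1 and C1orf116 fell outside the rule for naming genes and were named after their values were seen.

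Calls against 1 CasRx setup alone were few. Against gRNA they were RP11-559N14.5, FUT5, PTAFR and GCM1, which rose, and CTC-492K19.7, which fell; against pre-gRNA they were the 2 histone genes above. PTAFR, the receptor for platelet-activating factor, was at 1.79 against gRNA and 0.6 against pre-gRNA (edgeR adjusted p of 0.0211 and 1). These genes were named after their values were seen, and none of them was called in the test of gRNA against pre-gRNA. RP11-559N14.5 had at most 9 counts in CasRx libraries and passed the count filter through the AgoshRNA libraries. CTC-492K19.7 had at most 1 count in AgoshRNA libraries and passed through the CasRx libraries.

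Cytosolic ribosomal protein genes were slightly higher as a list, with 81 of 82 above 0 against gRNA and 71 against pre-gRNA, medians of 0.33 and 0.26, and no call. Their median per library overlapped between the groups (0 to 0.52 in AgoshRNA, -0.52 to 0.5 in CasRx), and the pre-gRNA letter B pair was as high as AgoshRNA. Without that pair the median against pre-gRNA was 0.58. Of 159 snoRNA and scaRNA genes none was called (medians -0.02 and 0.29). The same held for 24 genes of cholesterol synthesis (-0.03 and -0.03), 17 glycolytic enzymes (0.01 and -0.16), 17 hypoxia-inducible genes (0.05 and 0.14), 18 immediate early genes (0.04 and 0.01) and 28 cell cycle genes (0.02 and 0). It held as well for 77 nuclear-encoded respiratory chain subunits (0.13 and 0.01), 13 mitochondrially encoded mRNAs (-0.11 and -0.06), 16 SR splicing factors and CLK kinases (0.02 and 0.12) and 12 nuclear long non-coding RNAs (0.03 and 0.3). Of the 17 small nuclear RNAs made by polymerase II, 1 passed the count filter, with no call (0.8 and 0.48). With 0.0508% of all genes tested called against both setups, the absence of a call in these lists shows little.

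**Figure D5:**
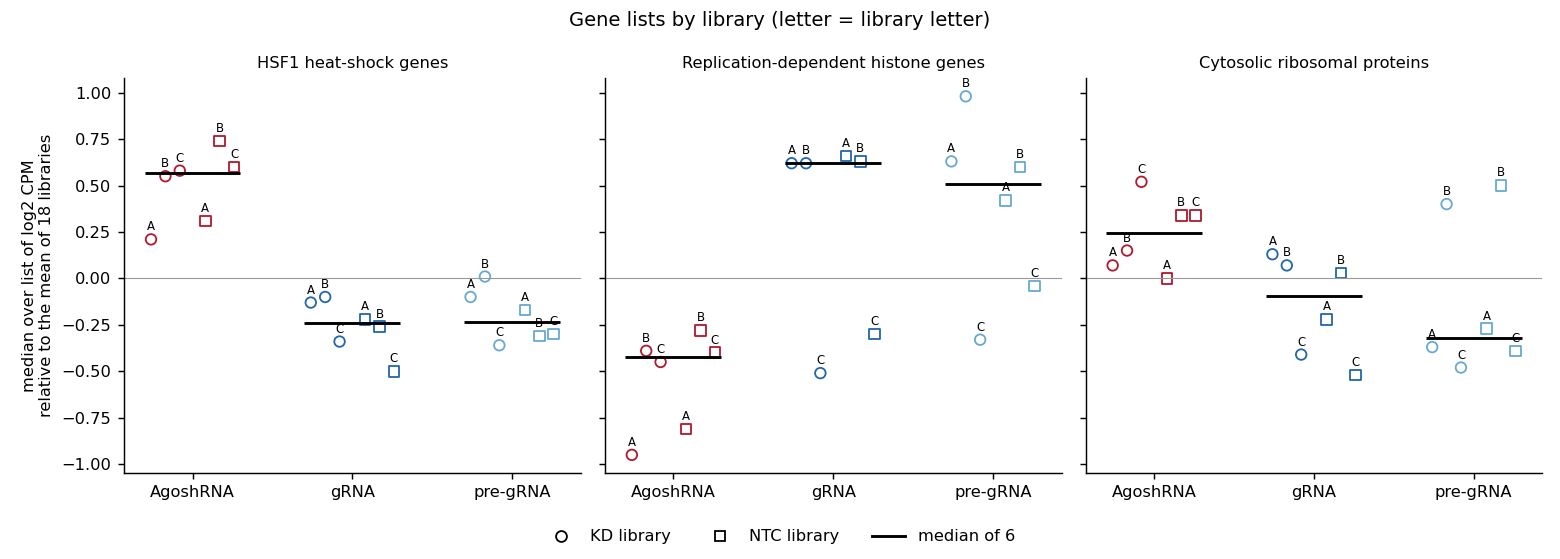
Median over the list members of log2 CPM relative to the mean of the 18 libraries (y axis) for 3 lists, by setup (x axis); circles are KD, squares NTC, letters the library letter, bars the median of 6 libraries. The heat-shock list separates AgoshRNA (0.21 to 0.74) from CasRx (-0.5 to 0.01), while the histone and ribosomal lists overlap.

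At the targeted locus the setups were not distinguished. LINC00632, the host transcript of ciRS-7, had 16 to 107 counts with AgoshRNA and 18 to 71 with CasRx, and differed by 0.72 (SE 0.4) and 0.65 (SE 0.4), with edgeR adjusted p of 1. CDR1 had 0 to 26 counts and 0 to 20, and CDR1-AS 0 to 15 and 0 to 16. Reads of these overlapping antisense genes cannot be assigned to a strand, and the libraries do not measure the circle itself.

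The setup differences did not depend detectably on the arm. Within KD and within NTC, HSPA6 and RNU6-1 were the 2 genes called in each of the 4 comparisons. The test of whether the setup difference varied with the arm called 0 genes against gRNA and 0 against pre-gRNA by edgeR, with 27 and 23 genes at an unadjusted p under 0.05 and 0 calls by DESeq2 in both. The median standard error of these arm differences was 0.646 and 0.644 in log2. A call over all genes tested takes several standard errors, so arm differences well above that size could also be missed.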

How the data were processed

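Raw read counts of 60658 genes in 24 libraries were deposited in 4 tables with identical counts; per the submitters' processing notes the authors used Trim Galore, STAR 2.7.3a, featureCounts and DESeq2 with hg19. The 24 columns of normalized values in each table were not used. From the counts, edgeR 4.0.16 (R 4.3.3) was fitted to 18 libraries with a term for setup and one for arm, TMM factors, and the 19691 genes that reached 10 counts in 3 or more libraries. A gene with few counts in some groups could pass this filter through the others alone. Benjamini-Hochberg adjusted p under 0.05 was called. Each SE given for edgeR is the absolute log2 difference divided by the square root of the F statistic of its test. Within-arm values came from a fit with 1 coefficient per group. GC content was taken from GENCODE 29 for 97.9% of tested genes, and a spline trend per library was removed as an offset. Alternatives used DESeq2 1.42.0 and limma 3.58.1, other filters, scalings and library sets, and left out each library and each same-letter pair. The fits were run on simulated counts, drawn independently with 1 fixed spread and without same-letter pairs or a GC trend. That check therefore does not show how the fits behave with those features.

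The libraries, lists and rules were chosen with earlier results of these data known. The rule named called genes with no overlap of the 6 and 12 libraries and a mean of at least 50 counts in the higher set, called list members, the targeted locus, and RNU6-1, HSPA6, DNAJB1 and DNAJB6. Libraries are named by column letter, since nothing links the letters to the replicate numbers.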

Additional observations from a re-analysis of the deposited data

Results flagged for a closer look

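A signal appeared in libraries that the comparison did not use. In the 6 libraries of the syn-gRNA setup, a synthetic guide by the title of the series, with a delivery that the labels do not describe, HSPA6 had a median of 8.03 CPM, scaled to library totals, and a range of 1.36 to 10.3 CPM. Each was above the highest of the 12 CasRx plasmid libraries, at 0.823 CPM. The letter A libraries were the lowest, with 18 and 27 counts, and the other 4 had 99 to 127. Counts in the AgoshRNA libraries were 408 to 547. The difference between the syn-gRNA and CasRx plasmid libraries was not tested here. The share of all genes whose syn-gRNA levels lay wholly above the CasRx plasmid range was not counted.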

How the results depend on the processing

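No paired analysis was possible because the replicate numbers of the labels cannot be linked to the columns; the fits below on same-letter libraries rest on the column letters alone. The counts of calls against gRNA, against pre-gRNA and against both moved by over 1.5 times under several settings, given in that order from main values of 15, 12 and 10. They were 49, 53 and 27 with DESeq2; 1, 1 and 1 with same-letter libraries summed; 3, 3 and 3 with the pair as a random term; 67, 72 and 41 with no filter on low counts; 3, 5 and 3 with a mean of at least 50 counts; and 56, 60 and 32 with the GC trend removed. Combinations chosen after seeing the data gave 2, 2 and 2 (GC trend removed and pairs summed) and 6, 6 and 5 (GC trend removed and pair as a random term). With all 24 libraries in the fit the first 2 counts were 28 and 30, and with 1 coefficient per group the last 2 were 5 and 5. RLE factors and a minimum log2 difference of 1 kept each count within 1.5 times.

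Leaving out libraries or pairs gave 5 to 111 calls against gRNA, 4 to 154 against pre-gRNA and 4 to 82 against both. The highest values came without the AgoshRNA letter A pair, when all 10 genes remained; the libraries of that pair had GC slopes of 0.74 and 0.49, and the cause was not tested. The fewest calls against both, 4, came without gRNA KD B, and without the gRNA A, pre-gRNA A or pre-gRNA B pair. Calls were 5 or 6 without AgoshRNA NTC B or C, gRNA KD A, pre-gRNA KD A or NTC B, or the AgoshRNA B, AgoshRNA C or gRNA B pair. Within arms DESeq2 called 7 (KD) and 5 (NTC) genes against each CasRx setup, and removing the GC trend called 4 against pre-gRNA in KD. Leaving out libraries gave 1 to 2 and 0 to 2 calls against gRNA in KD and NTC, and 1 to 3 and 1 to 2 against pre-gRNA; arm differences and gRNA against pre-gRNA stayed at 0 calls. No gene of the 10 changed sign under any alternative. Genes under 20 counts in 1 group, such as TNN, HIST1H4H and C1orf116, rest on few reads, which limits their precision.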

Other observations

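The 6 syn-gRNA libraries, outside the comparison, had low levels of the 3 genes called lower with the AgoshRNA vector. In CPM scaled to library totals, HIST1H4H was at 0.374 to 1.73 there and 1.45 to 7.95 in the 12 CasRx plasmid libraries, which overlap. C1orf116 was at 0.473 to 1.54 against 1.59 to 4.66, and AC008982.2 at 1.32 to 2.64 against 2.89 to 11.9, with no overlap. The share of all genes lying wholly below the CasRx plasmid range was not counted. Other histone genes were mixed, and all overlapped. HIST1H3E (0.395 to 2.21 against 1.35 to 8.93) and HIST2H4A (0.395 to 1.41 against 0.578 to 2.55) ran lower. HIST1H3B (2.62 to 5.6 against 1.3 to 4.17) and HIST1H2AC (6.33 to 14.7 against 4.24 to 14) ran higher. RNU6-1 was at 0.273 to 0.674 against 0.145 to 1.21, TNN at 0.0789 to 0.377 against 0 to 0.321, PNLDC1 at 0.225 to 0.671 against 0.0744 to 0.739 and POU2F2 at 0.631 to 1.88 against 0.529 to 2.16, all of which overlap.

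Levels of some heat-shock and J-domain genes in the syn-gRNA libraries lay above the CasRx plasmid range, and those of others met or overlapped it. DNAJB1 was at 103 to 159 CPM there and 52.7 to 129 in the CasRx plasmid libraries, which overlap. DNAJB6 was at 126 to 152 against 79.5 to 126, so the ranges met at their ends. HSPA8 was at 1500 to 2200 CPM against 597 to 1340, and DNAJA1, another J-domain partner of HSP70, at 134 to 156 against 55.4 to 111. HSF2, a relative of HSF1, was at 111 to 144 against 29 to 102, and HSP90AA1 at 1740 to 2160 against 631 to 1680. For these genes the ranges did not overlap. Some other heat-shock genes did not lie above the CasRx plasmid range. BAG3 was at 49.1 to 64.9 CPM against 38.6 to 88.4, HSPA1A at 22.2 to 39.8 against 12.9 to 87, and STIP1 at 230 to 292 against 232 to 423. HSPA8, DNAJA1, HSF2, HSP90AA1 and these genes were named here after their values were seen. The GC trend was not removed from these levels. Transcript GC was 40.5 to 47% in HSF2, DNAJA1, HSP90AA1 and HSPA8, and 55.2 to 59.7% in STIP1, BAG3 and HSPA1A. HSPA6, which also lay above the CasRx plasmid range, had 58.4%. The share of all genes whose syn-gRNA levels lay wholly above that range was not counted. None of the differences between syn-gRNA and CasRx plasmid libraries was tested here, nor was the part of GC content.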
